A study of Mus musculus with 3 samples.

Results

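The histone genes of regulatory T cells (Tregs) were followed in polyadenylated RNA. Genes were members when their GENCODE M21 symbol began with Hist1h, Hist2h, Hist3h, Hist4h, H2af, H3f3 or H1f and their biotype was protein-coding, which gave 82 of 55536 genes. Of these, 67 carried a cluster symbol (Hist1h to Hist4h) and are called replication-dependent here, and 15 carried an H2af, H3f3 or H1f symbol and are called replacement. The samples were mouse Tregs that had been through inflammation, taken as primary cells at 12 weeks of age, with a source name that gives activated Tregs as their origin. All 3 libraries came from 1 biosample of 1 donor, and the labels call them technical replicates 1 to 3 of a single biological replicate, so they formed 1 group. The sex of the donor was not collected, and the sources used here give neither the inflammatory treatment nor the sorting gate. Errors are standard deviations (SD) over the 3 libraries and measure only the spread between these libraries, which may be technical.

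Nucleosomes hold DNA on a core of the histones H2A, H2B, H3 and H4, and linker histones of the H1 family bind where the DNA enters and leaves. Replication-dependent histones are made in S phase from clustered genes, mostly without introns, and their mRNAs typically end just after a conserved stem-loop instead of in a poly(A) tail. Slbp, the stem-loop binding protein, holds that end. Replacement histones are made through the cell cycle from ordinary polyadenylated mRNAs, and they enter chromatin outside replication.

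Total expected counts (reads shared among genes by the authors' model) ran from 31665170 to 37810591 per library. All 7 Treg markers, Foxp3 among them, reached a TPM of at least 1 in every library, with summed TPM from 5269 to 5543. All 4 B cell markers also reached it, with a sum from 53.2 to 60.3, while none of 4 myeloid and none of 5 germ cell markers did, and Cd14 and Tnp1 were at 0. Of 3 erythroid markers 2 reached it, with sums of 10.2, 23.2 and 15.5 TPM, highest in library 2. Library 3 stood apart: 6 salivary secretion genes summed to 56788 TPM there, against 4.91 and 11.04 in libraries 1 and 2. TPM has a fixed sum, so the tests between libraries below use TMM-scaled counts. TPM values are given as deposited, library 3 included, and their order over libraries can differ from that on scaled counts. H3f3b, for example, was lowest in library 3 by TPM and in library 1 on scaled counts. The part of these other RNAs in any histone value was not tested.

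Replacement histones made up most of the histone RNA in these poly(A)-selected libraries. Histone mRNA without a poly(A) tail was not measured, so the ratios below describe the selected fraction. Their TPM (transcript abundance per length, scaled to 1 fixed sum) added up to 3938, 3896 and 3742 in libraries 1 to 3. The 67 replication-dependent genes added up to 512, 585 and 421. The replacement sum was thus 7.70, 6.66 and 8.88 times the replication-dependent sum, a log2 ratio of 2.94 ± 0.21 (SD, n = 3). The ranges of the class sums did not overlap. In bulk RNA, fewer cells with a transcript and less RNA per cell cannot be told apart. Together the members took 0.416% to 0.448% of all TPM. The class ratio depended on how reads were counted: it was 3.74 on the log2 scale for counts without length correction and 1.68 for the M4 counts per kilobase.

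The imbalance differed by family. Histone H3 was nearly all replacement: H3f3a and H3f3b summed to 2070, 2146 and 2004 TPM, while the 12 clustered H3 genes summed to 22.01, 13.00 and 19.2. Replacement genes gave 99.1% ± 0.24 of H3 TPM (SD, n = 3). In H2A they gave 86.4% ± 2.7, with sums of 1762, 1658 and 1650 TPM against 268, 330 and 207. In H1 the share was 71.4% ± 2.3, with 107, 91.6 and 88.1 TPM against 37.8, 40.7 and 35.6. The rule finds no replacement gene for H2B or H4, which rest on clustered genes: H2B summed to 66.0 ± 6.3 TPM and H4 to 116 ± 15. The shares fell in the order H3, H2A, H1 in each library.

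**Figure D1:**
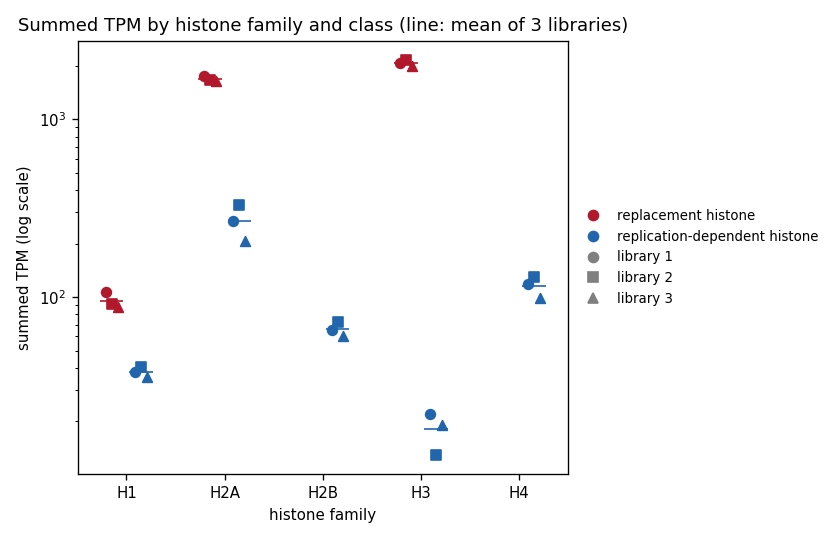
Summed TPM (log scale) of replacement (red) and replication-dependent (blue) genes in each histone family, 1 point per library and a line at the mean. Replacement sums lie above replication-dependent sums in all 3 families that have both, and the gap is widest in H3, with 2073 against 18.1 TPM on average.

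H3f3a and H3f3b encode the same protein, histone H3.3, from separate genes with introns. H3f3b (chr11:116021912-116027962, mm10, minus strand) stood at 1129, 1142 and 1083 TPM, the highest gene total of any member. H3f3a stood at 941, 1004 and 921 TPM. Over all transcripts, noncoding ones included, H3f3b was higher in each library, by 0.23 ± 0.04 in log2(TPM + 1), and the ranges did not overlap. H3f3a shared windows of read length with 39 pseudogenes and H3f3b with 2. The H3.3 pseudogene H3f3c was given 253, 267 and 236 TPM. Whether the order of H3f3a and H3f3b depends on how reads were split with pseudogenes was not tested. With 3 libraries an exact permutation test that flips signs (two-sided) cannot go below p = 0.25, which is the value it gave here and for every pair below. The genes differ in codons, so no read-length stretch of coding sequence is the same in both: H3f3a-205 and H3f3b-201 were identical at 76.9% of 411 coding bases, with a longest shared run of 23 bases, shorter than a read. The first 60 coding bases of both are shown because they carry this difference; capitals mark the 13 bases at which they differ, and the stretches lie at chr1:180811867-180811926 and chr11:116023950-116024009, both on the minus strand.
H3f3a: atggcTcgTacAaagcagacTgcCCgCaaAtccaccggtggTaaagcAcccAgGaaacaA
H3f3b: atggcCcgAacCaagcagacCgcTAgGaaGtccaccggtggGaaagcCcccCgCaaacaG
Their transcript make-up differed too. The leading coding transcripts had the reverse order: H3f3a-201 stood at 866, 925 and 843 TPM, above H3f3b-201 in every library. H3f3a-201 held 91.9% of H3f3a TPM, whereas H3f3b was split between the coding H3f3b-201 at 567, 594 and 517 TPM and the noncoding H3f3b-204 at 466, 449 and 443 TPM, with H3f3b-203, also noncoding, at 9.12% ± 1.44 of the gene. The authors' TPM bounds belong to their posterior mean: for H3f3b in library 1 the posterior mean was 1053 with an upper bound of 1068, below the TPM of 1129.

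Among the H2A variants, H2afz led. It encodes H2A.Z, a variant placed at promoters and enhancers, and stood at 1078, 992 and 1051 TPM. Over all transcripts, noncoding ones included, H3f3b exceeded it by 0.10 ± 0.09 in log2(TPM + 1). Their ranges over libraries did not overlap, but the pair was not called apart because the deposited TPM bounds overlapped in library 3. H2afv, the second H2A.Z gene, stood at 206, 189 and 179 TPM, 5.44-fold below H2afz by mean. H2afz-201 and H2afz-207 held 61.9% ± 2.0 and 35.1% ± 2.1 of the H2afz TPM, and H2afv-201 held 83.9% ± 0.9 of that of H2afv.

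H2afy encodes macroH2A, a variant with a large extra domain that is linked to silent chromatin. It stood at 274, 273 and 245 TPM, while its relative H2afy2 stood at 0.11, 0.74 and 0.05, so the H2afy level was never near that of H2afy2. H2afj reached 144, 132 and 118 TPM. H2afx, whose product is phosphorylated at DNA breaks, reached 59.4, 71.5 and 57.6 TPM and was below H2afj by 1.05 ± 0.20 in log2(TPM + 1). The 3 H2afb genes, known for their expression in testis, stood at 0.05, 0 and 0 TPM each, from 0.33 expected counts in library 1 and none elsewhere. The order H2afz, H2afy, H2afv, H2afj, H2afx held in all 3 libraries.

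The linker histones showed 1 high replacement gene. H1f0, a linker histone associated with cells that have stopped dividing, stood at 106, 90.2 and 87.2 TPM. The other 3 replacement H1 genes were below 1 TPM in every library: H1fx at 0.38, 0.75 and 0.14, H1foo of oocytes at 0.16, 0 and 0.33, and H1fnt of spermatids at 0, 0.61 and 0.36. Hist1h1c, the highest of the clustered H1 genes, stood at 21.7, 22.7 and 21.1 TPM, and Hist1h1e at 12.0, 13.6 and 11.1. H1f0 was 4.33-fold above Hist1h1c by mean, and Hist1h1c was 1.79-fold above Hist1h1e, both with ranges apart. Hist1h1b stood at 2.55, 3.12 and 1.67 TPM, Hist1h1d at 0.83, 0.78 and 0.82, and Hist1h1a at 0.79, 0.52 and 0.84. Hist1h1t, a testis linker histone, had no counts.

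Among the replication-dependent core histones, Hist1h2ap stood far above the rest. This H2A gene (chr13:21833026-21833507, minus strand) stood at 153, 218 and 106 TPM, which was 30.8% ± 6.1 of the class sum. Hist2h2aa2, another H2A gene, stood at 61.4, 61.3 and 53.9 TPM. The H4 genes Hist1h4m and Hist1h4n stood at 32.97, 42.6 and 35.2 and at 29.8, 22.2 and 18.6 TPM. The first 3 of these genes gave 49.9% ± 4.5 of the class sum, as the authors' model split the reads. All 3 share most of their sequence with other genes, as described below, so the level of each alone is uncertain. By contrast, the median clustered gene stood at 2.28 TPM, against 62.9 for the replacement genes and 1.04 over all protein-coding genes.

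The remaining clustered genes that averaged 10 TPM or more were Hist3h2ba (H2B) at 17.9, 16.01 and 16.2, Hist3h2a (H2A) at 15.6, 14.9 and 14.6, and Hist1h4d (H4) at 13.4, 12.7 and 10.3. Hist3h2a and Hist3h2ba lie next to each other on chromosome 11 and were not called apart. Next came Hist1h4k, Hist1h4b, Hist2h2ac, Hist1h4i, Hist1h2ai and Hist1h2bc, with mean TPM between 7.42 and 9.10. Hist1h2bc and Hist2h2be, both H2B genes, stood at 7.58, 9.48 and 5.19 and at 2.49, 3.17 and 3.94 TPM, a difference of 0.98 ± 0.57 in log2(TPM + 1) that was not called apart. Hist1h4i, at 8.59, 8.91 and 6.24 TPM, was 6.23-fold above Hist4h4 by mean, and that pair was apart. In all, 14 of 15 planned pairs could be computed and 11 were apart; the macroH2A pair with H2afy3 could not, because that row is a processed pseudogene.

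**Figure D2:**
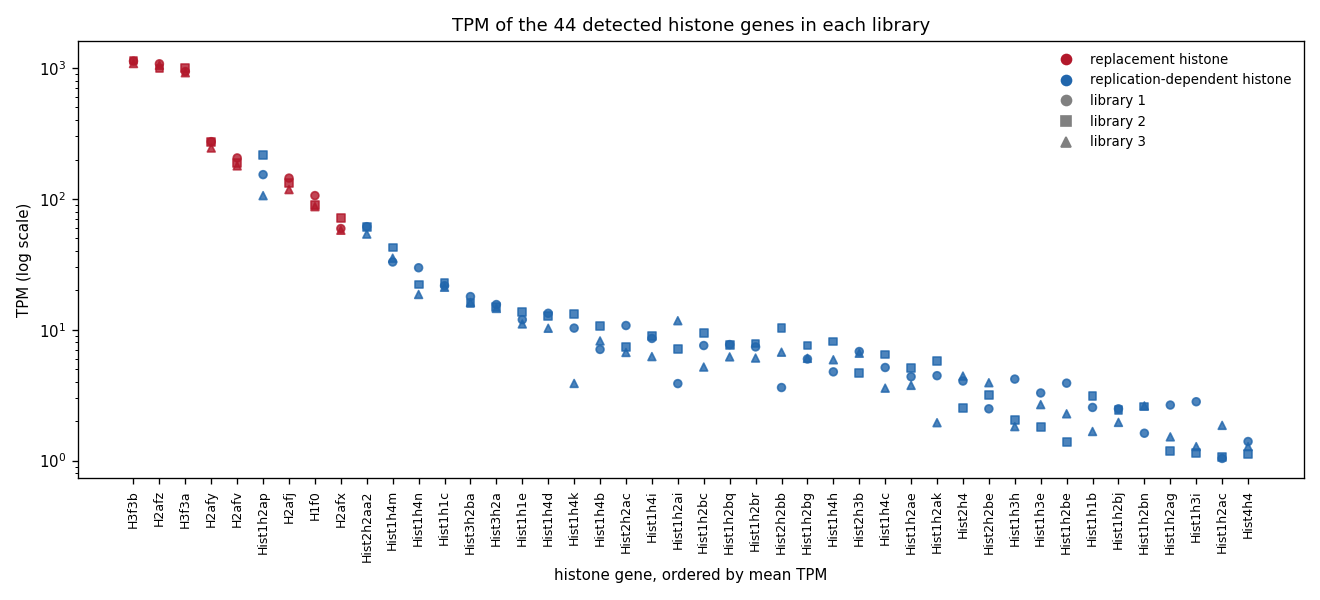
TPM (log scale) in each library for the 44 histone genes at 1 TPM or more in all 3 libraries, ordered by mean, replacement genes in red and replication-dependent genes in blue. Hist1h2ap, at 106 to 218 TPM, is the only blue gene among the 9 highest.

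A member counted as detected when no library put it under 1 TPM. That held for 8 of 15 replacement and 36 of 67 replication-dependent genes, or 53.7% of all members, against 47.6% of protein-coding genes. By family, 3 of 6 clustered H1, 9 of 18 H2A, 10 of 18 H2B, 4 of 12 H3 and 10 of 13 H4 genes were detected. By cluster, the counts were 27 of 54 for Hist1h on chromosome 13, 6 of 10 for Hist2h on chromosome 3, both of the Hist3h genes on chromosome 11 and the single Hist4h gene on chromosome 6. Just inside the threshold were Hist4h4, at 1.40, 1.13 and 1.28 TPM, and Hist1h2ac, at 1.04, 1.06 and 1.86. Just outside were Hist1h3a, at 2.31, 0.85 and 4.17, and Hist1h1d. Only 5 members had no counts in any library: Hist1h1t, Hist1h2af, Hist1h2ao, Hist1h2ba and Hist2h3c1.

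Several of these values rest on sequence that genes share. Reads fit a window of 50 bases, judged from the difference between length and effective length in the tables, and every such window of each member was looked up in all M21 transcripts on both strands. For the median replication-dependent gene 45.9% of windows occurred in no other annotated gene, for the median replacement gene 92.0%, and for the median protein-coding gene 99.3%. In 34 of 67 replication-dependent genes under 50% of the windows were unique, and those genes held 72.4% of the class TPM. The same was true of 0 of 15 replacement genes and of 8.55% of protein-coding genes. The leading clustered genes were among the affected: Hist1h2ap had 6.93% unique windows, Hist2h2aa2 none, Hist1h4m 10.2% and Hist1h4n 14.4%.

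The shared stretches included whole coding sequences. Hist1h2ap and Hist1h2ao were identical over 393 coding bases, yet Hist1h2ao had 0 counts and Hist1h2ap 1467 on average. Hist2h2aa1 and Hist2h2aa2 were identical over 393 coding bases too, and stood at 0, 0 and 1.27 against 61.4, 61.3 and 53.9 TPM. Hist1h4m and Hist1h4n shared all 312 coding bases. The transcripts Hist1h2bq-201 and Hist1h2br-202 were identical over their whole 381 bases, and the authors' model gave both the same TPM, 6.92 on average. The level of such a gene alone is therefore uncertain. The sum over a pair does not depend on the split within it, but reads can also be split with genes outside the pair. Hist1h2ap shared windows with 48 genes, Hist2h2aa2 with 44 and Hist1h4m with 11. The pair Hist2h2aa1 and Hist2h2aa2 was called apart although neither has a unique window. Overlap with other gene types also occurred: all windows of Hist2h2aa2 lie in the antisense gene Gm20632, 30.9% of those of H2afz in Tmcc1 and 16.3% of those of H3f3a in Gm17275. H3f3a shared windows with 39 pseudogenes.

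The second deposited gene table, counted on annotation M4, held far fewer reads for the leading members. The M4 count was 2.04% of the M21 expected count for H3f3b, 0.548% for H2afz and 0.377% for H3f3a. It was 22.3% for H2afy, 23.5% for H2afv and 21.5% for H1f0. In the range from 1000 to 10000 expected counts, which holds these genes, the protein-coding median was 41.6% and the first quartile 27.3%. Protein-coding genes with at least 10000 expected counts had a median of 13.3%, with a 5th percentile of 0.699%, so H2afz and H3f3a lay below that percentile. Hist1h2ap, Hist2h2aa2, Hist1h4m, Hist1h2bq and Hist1h2br had no M4 counts at all. At the other end, Hist1h1b, whose windows were all unique, had an M4 count of 101% of the M21 count, and Hist1h1c 36.5%. Members with at least 50% of their windows unique had a median of 23.4% (33 genes), the others 7.94% (22 genes). In the M4 counts per kilobase H2afz fell below H2afv and H2afx by 2.95 and 0.74 in log2 units, the reverse of their TPM order.

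**Figure D3:**
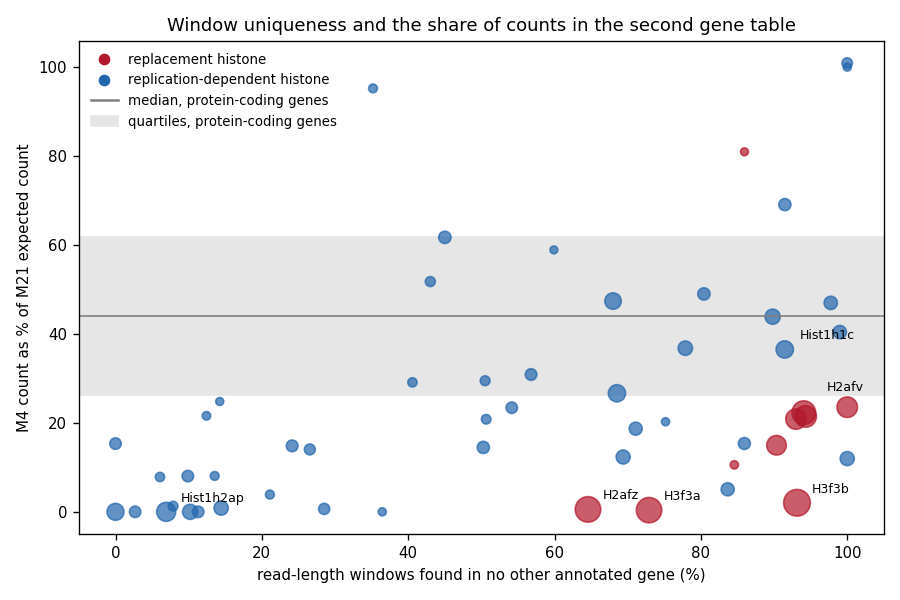
Each point is a histone gene with a mean expected count of at least 10 and a row in both tables; the horizontal axis is the percent of 50-base windows found in no other annotated gene, the vertical axis the M4 count as percent of the M21 expected count, and point size rises with the expected count. Hist1h2ap sits at the lower left with 6.93% unique windows and no M4 counts, and H3f3b sits at the lower right with 93.1% unique windows and 2.04%.

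The annotated transcript ends were then set beside the levels. Each gene was described by its coding transcript of highest TPM share, even where, as in Hist1h2be, a noncoding transcript held more. That transcript had a single exon in 65 of 67 replication-dependent and 7 of 15 replacement genes, with median lengths of 528 and 1069 bases. The histone stem-loop, an element of 16 bases, was searched by its consensus on the transcript strand of each annotated transcript. Counted over protein-coding transcripts, it was found in 44 of 67 replication-dependent genes, in 1 of 15 replacement genes, and in 0.284% of 21866 protein-coding genes with such a transcript. The 1 replacement gene was H2afx. A match describes letters and no processing site. The windows below are shown as examples of the element in both end types and in H2afx; capitals mark the stem-loop, and all are 5′ to 3′ on the gene's strand in mm10.
Hist1h1c: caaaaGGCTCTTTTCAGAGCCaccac
Hist3h2a: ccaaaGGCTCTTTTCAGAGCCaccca
Hist1h4d: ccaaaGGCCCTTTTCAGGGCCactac
Hist2h2aa2: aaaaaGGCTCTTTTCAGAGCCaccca
Hist1h2ap: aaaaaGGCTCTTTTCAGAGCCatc
Hist1h4m: ctaaaGGCCCTTTTCAGGGCCatc
H2afx: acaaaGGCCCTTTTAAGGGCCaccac
They lie at chr13:23739507-23739532, chr11:58955167-58955192, chr13:23581945-23581970, chr3:96239779-96239804, chr13:21833026-21833049, chr13:21812124-21812147 and chr9:44335235-44335260. The form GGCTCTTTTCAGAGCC stood in 26 of the 44 genes, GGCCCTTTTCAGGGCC in 7 and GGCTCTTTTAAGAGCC in 6. It began 21 to 58 bases after the stop codon, with a median of 31.

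What differed was how far the annotation runs past the stem-loop. The transcripts of Hist1h2ap and Hist1h4m end 3 bases after it, while those of Hist1h1c and Hist3h2a run on for 840 and 1643 bases. These longer ends hold the hexamer AATAAA, the usual signal for poly(A) addition, in their last 50 bases. Their end windows are shown with the hexamer in capitals, at chr13:23740332-23740357 and chr11:58956787-58956812, plus strand.
Hist1h1c: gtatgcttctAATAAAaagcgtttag
Hist3h2a: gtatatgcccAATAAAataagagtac
In the class as a whole, 22 genes had more than 100 bases annotated after the loop, and 9 of these carried the hexamer near their end. Another 22 ended within 100 bases of the loop, and none of those did. A further 15 had no match and ended at the stop codon, so that their annotation has no room for a loop, and 8 had bases after the stop codon but no match. Counted over any annotated protein-coding transcript of a gene, the hexamer stood near the end of 14 of 67 replication-dependent and 9 of 15 replacement genes and of 65.8% of all protein-coding genes.

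The end types weighed differently in each quantity. Genes with long ends were detected in 14 of 22 cases and held 23.0% of the replication-dependent TPM, 47.4% of its expected counts and 82.0% of its M4 counts. Genes that end near the loop were detected in 8 of 22 cases and held 60.1%, 39.4% and 6.70%. The Hist1h2ap value lies in this second set. The sets also differed in shared sequence. The leading genes of the first, Hist1h1c, Hist3h2ba, Hist3h2a, Hist1h1e and Hist1h4d, had 68.0% to 91.5% unique windows. Those of the second, Hist1h2ap, Hist2h2aa2, Hist1h4m and Hist1h4n, had 0% to 14.4% and almost no M4 counts. The part of shared sequence in these shares was not tested. The median transcript was 1255 bases long in the first set and 483.5 in the second, and a longer transcript gathers more reads at the same TPM. Whether the reads came from polyadenylated molecules past the loop was not tested, because no read positions were used here.

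**Figure D4:**
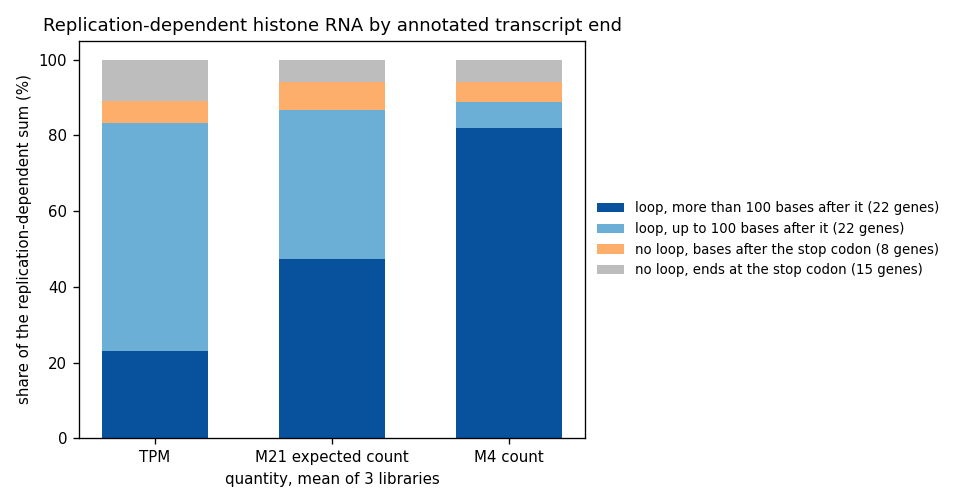
Share of the replication-dependent sum (percent, bars stacked to the total) held by genes of 4 annotated end types, in TPM, M21 expected counts and M4 counts, as means of 3 libraries. The dark band of genes that run more than 100 bases past the stem-loop grows from 23.0% of TPM to 82.0% of M4 counts. The leading genes of the end types also differ in shared sequence.

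Between libraries, the replacement class hardly moved and the replication-dependent class moved more. On TMM-scaled counts the replacement sum differed by -0.021, -0.034 and -0.013 on the log2 scale for library 1 over 2, 1 over 3 and 2 over 3. For the replication-dependent sum these were -0.15, 0.08 and 0.23, with a 95% exact binomial interval of 0.18 to 0.28 for the last, which covers counting error only. Most of this spread was in the reads given to 1 gene: without the highest member of each class, which here is Hist1h2ap, the 3 values were -0.031, 0.013 and 0.045. Only 6.93% of its windows are unique and it shares windows with 48 genes, so its own values depend on how the authors' model split reads. Hist1h2ap itself had scaled CPM (counts scaled to a common library size) of 39.99, 57.9 and 30.1, highest in library 2 and lowest in library 3, a 1.92-fold range. In TPM as deposited the replication-dependent sum in library 2 exceeded that in library 3 by 0.47.

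Gene by gene, a chi-square test against Poisson counting noise was run over the 18253 genes that averaged 10 counts or more, with Benjamini-Hochberg adjustment. It compares these libraries and no conditions, and it called 77.2% of all genes at an adjusted p under 0.05. Among the members, 57 were tested and 36 called, 8 of 10 replacement and 28 of 47 replication-dependent genes, a share of 63.2%. Called genes were highest in library 1 in 11 cases, in library 2 in 17 and in library 3 in 8, while 23.8%, 29.6% and 23.7% of all tested genes were called and highest there. In pairs, 17 members were called higher in library 1 and 16 in library 2, against 29.8% and 30.8% of all genes (60.5% in either direction). Library 1 against library 3 gave 12 and 9, against 22.7% and 26.4% (49.1% in either direction), and library 2 against library 3 gave 16 and 10, against 28.0% and 29.0% (57.1% in either direction). A range of at least 2-fold between the highest and lowest library was seen in 17 called members, against 27.1% of all tested genes. Of the 17, 16 averaged under 100 counts. In that depth range 16 of 34 members had such a range, against 61.8% of all tested genes.

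Among the members with this range, H2afy2 had 5.06, 30.4 and 2.38 expected counts, and H1fx 9.88, 17 and 4. They were the 2 replacement genes with such a range, and both were highest in library 2. Of the 15 replication-dependent ones, 6 encode H3: Hist1h3a, Hist1h3d, Hist1h3f, Hist1h3h, Hist1h3i and Hist2h3c2. The H2A genes were Hist1h2ah, Hist1h2ai, Hist1h2ak, Hist1h2an and Hist2h2ab, the H2B genes Hist1h2be, Hist1h2bh and Hist2h2bb, and the H4 gene Hist1h4k. Hist1h2ah fell from 50.4 and 21.9 expected counts to 5.95 in library 3, and Hist1h2ai ran the other way, with 29.4, 47.6 and 97.2. Both have under 10% unique windows, at 7.87% and 9.88%, so a shift of reads between copies cannot be told apart from a shift in RNA. Such a range was seen in 10 of the 23 tested members with under 50% of their windows unique and in 7 of the other 34.

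Of the 9 members with at least 1000 counts, 7 were called, against 84.8% of all such genes, and none had a range of 2-fold. H3f3b had scaled CPM of 940, 985 and 967 and was called at an adjusted p of 2.32e-08 with a range of 1.05-fold between the highest and lowest library. The ranges of the called H2afz, H3f3a, H2afx and H1f0 were 1.13, 1.08, 1.23 and 1.15-fold. H2afx was highest in library 2 and H1f0 in library 1. Hist1h2ap, described above, had the widest range of these 9 genes, while H2afy (1.03-fold) and H2afj (1.07-fold) were not called. From 100 to 1000 counts, 7 of 14 members were called, against 79.2% of all such genes. The called ones were Hist1h2be with 2.79-fold, Hist2h4 with 1.87, Hist2h2be with 1.73, Hist1h2bc with 1.71, Hist1h4n with 1.46, Hist1h4m with 1.32 and Hist1h1e with 1.16-fold. Hist1h1c, Hist1h1d, Hist3h2a, Hist3h2ba, Hist2h2aa2, Hist1h4d and Hist1h4i were not called, with ranges of 1.05 to 1.33-fold.

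**Figure D5:**
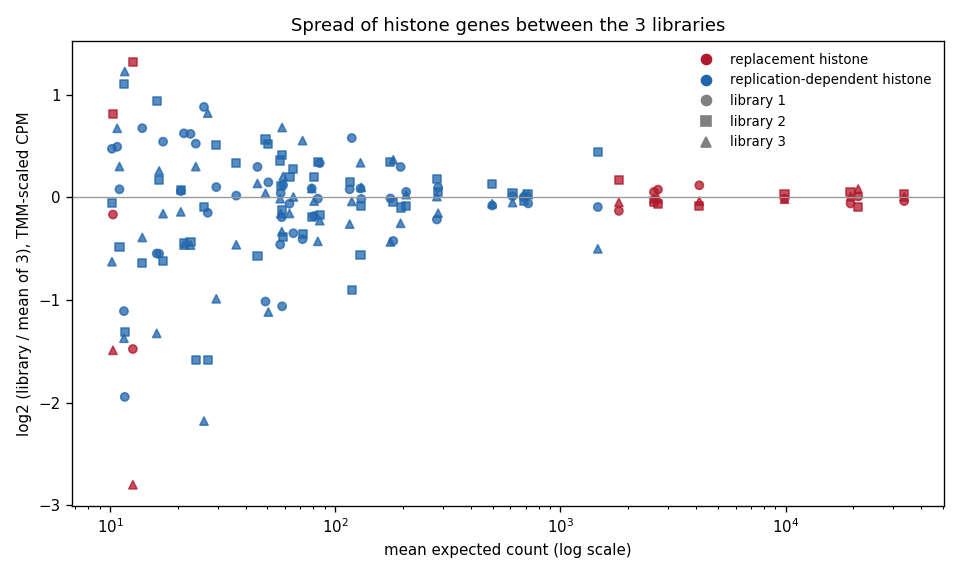
Log2 of each library's TMM-scaled CPM over the mean of 3, against the mean expected count (log scale), for the 57 tested histone genes; Hist1h2an in library 2 is at 0 and not drawn. The points narrow towards high counts, and Hist1h2ap, near 1467 counts, stands out from its neighbours.

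Promoters and gene order were described for the members as well. RefSeq promoters (GRCm38.p6, 250 bases before to 50 after the start) matched 76 of 82 members. CCAAT, the box bound by the factor NF-Y, occurred on either strand in 53 of 62 matched replication-dependent genes, 10 of 14 replacement genes and 41.1% of all genes in the table. TATAAA occurred in 35 of 62, 1 of 14 and 15.7%. The matched replication-dependent genes without CCAAT were all H4 genes: Hist1h4b, Hist1h4f, Hist1h4h, Hist1h4i, Hist1h4j, Hist1h4k, Hist1h4m, Hist1h4n and Hist4h4. Of the matched H4 genes only Hist1h4a, Hist1h4c and Hist1h4d held CCAAT, whereas every matched clustered H1, H2A, H2B and H3 gene did. The 250 bases before the start are shown for the leading H2A.Z gene and the leading gene among clustered members with mostly unique windows; capitals mark CCAAT or its reverse complement ATTGG. They lie at chr3:137864237-137864486 and chr13:23738557-23738806, plus strand.
H2afz: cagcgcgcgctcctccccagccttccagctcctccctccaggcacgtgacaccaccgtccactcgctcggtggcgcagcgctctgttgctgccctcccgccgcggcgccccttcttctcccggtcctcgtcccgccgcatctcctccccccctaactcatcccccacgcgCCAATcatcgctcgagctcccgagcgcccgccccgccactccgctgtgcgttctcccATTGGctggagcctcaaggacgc
Hist1h1c: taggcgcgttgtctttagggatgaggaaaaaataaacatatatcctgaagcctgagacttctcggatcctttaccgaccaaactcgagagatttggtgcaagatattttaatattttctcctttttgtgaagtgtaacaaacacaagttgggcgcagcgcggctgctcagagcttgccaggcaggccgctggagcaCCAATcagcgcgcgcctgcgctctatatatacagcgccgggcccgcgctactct
H2afz holds 2 matches in this stretch and Hist1h1c 1, and neither holds TATAAA. A match is a description of letters and no evidence of binding.

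Many clustered genes sit head to head. There were 13 pairs of members on opposite strands with starts within 1000 bases and facing away from each other, 12 of them an H2A with an H2B gene, 176 to 306 bases apart. In 6 of the 12 both genes were detected, in 2 only 1 and in 4 neither. Levels within a pair could differ widely: Hist1h2ap at 159 TPM on average faced Hist1h2br at 7.11, Hist1h2bc at 7.42 faced Hist1h2ac at 1.32, and Hist2h2ac at 8.30 faced Hist2h2be at 3.20. Hist1h2ap and Hist1h2br have 6.93% and 11.3% unique windows, so their gap can depend on how shared reads were split. The detection counts can depend on it too: Hist1h2ao, identical to Hist1h2ap in coding bases, is the undetected partner of Hist1h2bq. The pair Hist1h2ae and Hist1h2bg was closer, at 4.42 and 6.54.

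Genes that make and place histones were present. Of 17 genes for the supply of replication-dependent mRNA, 16 were detected and 14 called different between libraries (82.4%, against 77.2% of all tested genes), with a median TPM of 37.5. Slbp, the stem-loop binding protein, led with 142, 130 and 122 TPM and was not called. Tut7, a uridylyltransferase for histone mRNA, averaged 115, Cpsf3, the nuclease that cuts at the loop, 109, and Tut4 90.2 TPM. The lowest were Lsm11 of the U7 particle, at 5.79, 8.04 and 7.79, and Zfp473, at 0.47, 0.52 and 1.09. Npat, which drives transcription of the histone clusters, stood at 14.3, 9.32 and 11.03 TPM and was called, lowest in library 2.

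All 26 chaperone and exchange genes were detected and 24 called (92.3%, against 77.2% of all tested genes), with a median TPM of 58.2. Npm1 averaged 410 TPM, Rbbp4 259, Nap1l4 216 and Atrx, which loads H3.3 with Daxx, 203. Hira, the other H3.3 chaperone, stood at 15.1, 15.98 and 18.5. Anp32e, which removes H2A.Z, stood at 147, 173 and 128. Asf1b, which hands on H3 and H4, stood at 11.5, 7.49 and 12.4. The subunits of the replication chaperone CAF-1 ranged widely: Chaf1b stood at 21.3, 14.6 and 13.8 and Chaf1a at 2.14, 1.69 and 2.43, and Rbbp4, also a subunit, is given above. Ino80 averaged 3.97. Cenpa, the centromeric H3, stood at 85.6, 53.0 and 58.7 TPM, more than the 12 clustered H3 genes together in every library. That holds for the poly(A)-selected RNA only, since histone mRNA without a poly(A) tail was not measured.

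Of 30 S phase genes, 28 were detected and 27 called, against 77.2% of all tested genes, with a median TPM of 16.7. Mcm6 averaged 134, Pcna 115, Mcm4 59.8 and Dut 53.6 TPM. Rrm2 stood at 20.8, 18.5 and 9.62, lowest in library 3, and Mki67 at 9.08, 4.98 and 5.44, highest in library 1. Cdc6 and E2f1 were the lowest, at 1.29 and 1.76 on average. On TMM-scaled counts the median S phase gene differed by 0.19, 0.14 and 0.064 on the log2 scale for library 1 over 2, 1 over 3 and 2 over 3, and the median replication-dependent histone gene by -0.051, 0.14 and 0.090. Over all tested genes the medians were -0.0022, -0.012 and -0.0065. The S phase and histone medians had the same sign for library 1 over 3 and 2 over 3 and opposite signs for library 1 over 2. For library 2 over 3, 9 S phase genes were called higher and 9 lower, and 10 and 9 replication-dependent genes, against 28.0% and 29.0% of all tested genes. For 1 over 2 these were 19 and 5, and 13 and 12, against 29.8% and 30.8%. For 1 over 3 they were 17 and 5, and 10 and 6, against 22.7% and 26.4%. A link between the 2 sets was not tested.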

How the data were processed

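Polyadenylated RNA from 1 Treg biosample was sequenced in 3 libraries (35652707, 31665170 and 37810591 expected counts). Counts limit the precision of each value, and shared sequence limits it further. The authors' gene tables on GENCODE M21 and mm10 hold expected counts, posterior mean counts, TPM, FPKM and posterior mean TPM with bounds whose level is not stated, per the file headers. The deposited transcript tables add each transcript's percent of its gene. The deposited tables on annotation M4 hold whole-number counts and no header, and how they treat duplicates or reads with several matches was not given in the sources used here. Rows for transfer RNAs and spike-ins, 0.170% to 0.218% of counts, stayed out of library sizes and tests.

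The members and gene lists were chosen with earlier results of these data known. Expected counts were rounded and scaled by TMM (edgeR 4.0.16, R 4.3.3). For genes averaging 10 counts or more, a chi-square test compared the libraries with Poisson noise, adjusted by Benjamini-Hochberg at 0.05 over all genes. A single group allows no quasi-likelihood contrast. On counts simulated with Poisson noise alone the test recovered 63.0% of genes changed 1.5-fold in 1 library and 97.0% of those changed 3-fold, over 18320 genes. The simulation held no other spread between libraries and no splitting of shared reads, so these rates do not cover either. A pair was called apart where each library gave the same sign of the log2(TPM + 1) difference and neither the ranges over libraries nor the deposited TPM bounds within any library overlapped. Alternatives used DESeq2 1.42.0 size factors, total counts, other filters, other units and each library left out. Scripts ran in Python 3.11.15 with scipy 1.17.1, pandas 2.3.3, numpy 2.4.6 and matplotlib 3.10.9.

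The genome itself was not used here, so the stem-loop was searched in annotated transcripts and not in the bases beyond them. Windows of 50 bases were matched to all M21 transcripts on both strands. Named genes are all replacement members, the 15 highest replication-dependent members, pair members, members with a called range of at least 2-fold and those beside the TPM minimum of 1, the 4 highest and 2 lowest of each list with a few preset genes, and the markers. Others were named after their values were seen.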

Additional observations from a re-analysis of the deposited data

Results flagged for a closer look

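The symbol rule leaves out 9 rows by biotype, and 6 of these held more expected counts in every library than the limit of 3 that a count of 0 allows. H3f3c, a processed pseudogene of the H3.3 genes, had a mean of 1986 expected counts and stood at 253, 267 and 236 TPM, above every replication-dependent member, and 26.2% of its windows were unique. H3f3aos, antisense to H3f3a, had a mean count of 60.2, with 94.96% unique windows. Hist1h2aj, an unprocessed pseudogene of the H2A genes, had a mean of 50.2 and stood at 6.36, 8.69 and 7.80 TPM, with 6.93% unique windows. H3f3a-ps1 had a mean count of 20.9, Hist3h2bb-ps of 9.46 and H2afy3 of 6.34. Whether reads of these rows came from the members they resemble was not tested.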

How the results depend on the processing

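The values here come from 3 libraries of 1 biosample and say nothing about variation between mice. No paired analysis was possible because the 3 libraries form 1 group. Members with near-identical copies are uncertain one by one, and the M4 counts change the order of some pairs.

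The test over libraries called 14094 of all genes and 36 members. Without replicate 1, 2 or 3 it called 9267 to 11076 genes and 21 to 32 members, the fewest without library 2. With a mean count of at least 50 it called 21 members, with the M4 counts 6272 genes and 2 members, and over members with at least 50% of their windows unique 20 of 34. The number of detected replication-dependent members was 36, 16 at a TPM of at least 5, and 17 among members with mostly unique windows. The log2 class ratio of 2.94 was 3.74 in counts without length correction, 1.68 in M4 counts per kilobase and 4.79 over members with mostly unique windows, a restriction chosen after seeing the data that drops 34 replication-dependent and 0 replacement members, and 2.84 to 3.05 without each library.

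In CPM without length correction the difference Hist1h2bc minus Hist2h2be was -0.015 and Hist3h2a minus Hist3h2ba 1.58, both of reversed sign, and H3f3b minus H2afz was 0.68 and apart. In the M4 counts per kilobase H2afz minus H2afv was -2.95, H2afz minus H2afx -0.74 and Hist2h2aa1 minus Hist2h2aa2 0.48, all of reversed sign, while Hist1h2bc minus Hist2h2be at 1.09, Hist3h2a minus Hist3h2ba at -0.53 and H3f3b minus H2afz at 2.02 were apart, a looser call there because these counts have no bounds. Without library 3, Hist1h2bc minus Hist2h2be was 1.31 and H3f3b minus H2afz 0.13, both apart; over the 3 omissions they ran from 0.81 to 1.31 and from 0.054 to 0.13.

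In TPM as deposited the replacement sum changed sign, to 0.016, 0.074 and 0.058 for library 1 over 2, 1 over 3 and 2 over 3, and the replication-dependent values were -0.19, 0.28 and 0.47. Without the highest member of each class the replacement sum was 0.0058 for library 1 over 2, of reversed sign, and -0.036 for 2 over 3, and the replication-dependent values were -0.031, 0.013 and 0.045. Over members with mostly unique windows the latter were -0.020, -0.015 and 0.0052, the second of reversed sign. The causes were not tested. For the class sums, pairs and counts, 136 alternatives were classed as the same as the main result. A further 20 were classed as moved, 10 as reversed and 6 as stronger. For the 17 single members 144 of 147 were classed as the same. For pairs, the same meant an unchanged direction and an unchanged call of apart. For counts and class sums it meant a value close to the main one. A moved value can thus keep its direction, as the log2 class ratios of 3.74, 1.68 and 4.79 did.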
